A study of Mus musculus with 3 samples.

Results

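Among pancreatic acinar cells, those rich in Tff2 RNA and poor in Reg2 RNA were described here. A barcode, the tag that stands for 1 droplet, was counted as acinar when 16 digestive enzyme and secretory genes (Cpa1, Cpb1, Cela1, Cela2a, Cela3b, Ctrb1, Ctrl, Pnlip, Prss2, Try4, Try5, Cel, Amy2a5, Rnase1, Zg16 and Clps) held at least 45% of its UMIs, the deduplicated transcript counts, and mitochondrial genes under 5%. It was counted as Tff2-high, Reg2-low when Tff2 held at least 0.3% and Reg2 under 0.1% of its UMIs. These cuts selected 3488 of 21046 acinar barcodes and of 41134 barcodes in all. Because the barcodes were chosen on measured RNA, the levels of Tff2, Reg2 and the 16 genes are given as a description, and so is every contrast between the selected barcodes and the other acinar barcodes. The study trained db/db mice on a treadmill (males, 6 weeks old) and profiled dissociated pancreas on the 10x Chromium 3-prime v3 platform; a leptin receptor defect makes these mice obese and diabetic. There were 3 libraries. The library labelled none is sedentary, and the sources used here do not give the genotype or age of its mice. The library labelled diabetic is also sedentary and is called diabetic sedentary below, and the library labelled diabetic-Exercise is called diabetic exercise. They do not give the number of animals per library either. With 1 library per group, no difference between libraries has a replicate check, and no test across libraries was made.

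Acinar cells make and store digestive enzymes as zymogens and release them when cholecystokinin or acetylcholine reaches the cell. Tff2 encodes a small trefoil peptide that is secreted with mucus and is best known from the stomach. Reg2 belongs to the Reg family of secreted lectin-like proteins, which are known to climb in the pancreas during inflammation and injury. Amy2a5 and Pla2g1b encode digestive enzymes that break down starch and phospholipids. Amy2b belongs to the amylase family, and the annotation used here lists it as a pseudogene. Many of these genes lie in families of near-identical copies (amylases, trypsinogens, Reg genes), so reads may have been shared between copies and their single values are uncertain.

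In the GENCODE M21 annotation of GRCm38, Tff2 lies at chr17:31141049-31144282 on the minus strand and Reg2 at chr6:78395623-78408106 on the plus strand. Amy2b lies at chr3:113147656-113156727 on the minus strand, where it is annotated as an unprocessed pseudogene. The 250 bases before the RefSeq starts of Reg2, of the 2 genes of the cuts the one that separates the libraries more, and of Amy2b, a marker outside the 16 genes, are shown 5′ to 3′ because acinar promoters are known to be bound by the PTF1 complex, which reads an E-box and a TGGGAA box. Capitals mark CACCTG, searched on both strands as an E-box, and TGGGAA, searched on both strands and printed as TTCCCA where it reads on the other strand. The Reg2 window is chr6:78404905-78405154 (plus strand), which lies inside the GENCODE span of Reg2 given above. The Amy2b window is chr3:113156728-113156977 (minus strand), and both windows are in GRCm38.p6.
Reg2: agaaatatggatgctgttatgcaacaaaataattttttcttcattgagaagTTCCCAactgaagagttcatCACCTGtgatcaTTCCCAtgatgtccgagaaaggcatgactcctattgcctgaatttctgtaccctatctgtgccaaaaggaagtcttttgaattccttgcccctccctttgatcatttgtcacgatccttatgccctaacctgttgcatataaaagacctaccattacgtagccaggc
Amy2b: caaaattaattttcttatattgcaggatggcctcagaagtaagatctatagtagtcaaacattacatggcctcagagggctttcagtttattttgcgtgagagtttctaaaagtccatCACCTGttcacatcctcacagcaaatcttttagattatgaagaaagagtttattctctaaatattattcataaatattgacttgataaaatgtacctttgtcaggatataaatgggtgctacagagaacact
The Reg2 window holds CACCTG 179 bases before the start and TGGGAA on the other strand at 199 and 167 bases. The Amy2b window holds CACCTG at 132 bases and no TGGGAA. Of 32851 RefSeq promoter windows of this length, 17.2% hold CACCTG and 21.6% hold TGGGAA, so each match is common and is only a description of the letters. Amy2a5 and Pla2g1b windows were also searched and hold neither motif. RefSeq windows were looked up for 5 genes and found for 4, and Tff2 is named only.

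The libraries differed in size and in RNA quality. They hold 9958 barcodes and 54128454 UMIs in none, 12743 and 80185752 in diabetic sedentary, and 18433 and 45209034 in diabetic exercise. The mitochondrial ceiling removed 0.978% of barcodes that met the panel cut in none, 8.17% in diabetic sedentary and 68.2% in diabetic exercise, so the 4482 acinar barcodes of diabetic exercise are what was left of 14083. Pairs of libraries shared 32 to 61 barcode sequences, and none of these was Tff2-high, Reg2-low in both libraries of a pair.

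Tff2-high, Reg2-low barcodes were found almost entirely in none. They numbered 3405 of 7999 acinar barcodes in none (42.6%, exact Clopper-Pearson 95% interval 41.5 to 43.7%). No such barcode was found among 8565 in diabetic sedentary, which allows a share of up to 0.0350% by a floor of 3 counts (exact upper limit 0.0431%). In diabetic exercise they numbered 83 of 4482 (1.85%, 1.48 to 2.29%). The intervals cover counting error only. Of all 3488, 97.6% came from none.

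Both cuts separated the libraries, and Reg2 did so more. Tff2 reached its cut in 51.2% of acinar barcodes in none, 1.31% in diabetic sedentary and 10.9% in diabetic exercise. Reg2 was under its cut in 82.0%, 0.665% and 13.2%. Among the Tff2-high barcodes alone, 83.1% of 4099 were Reg2-low in none, 0 of 112 in diabetic sedentary and 17.0% of 489 in diabetic exercise. The median acinar barcode of diabetic sedentary carried 0.122% Tff2 and 0.724% Reg2, against 0.304% and 0.0437% in none.

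**Figure D1:**
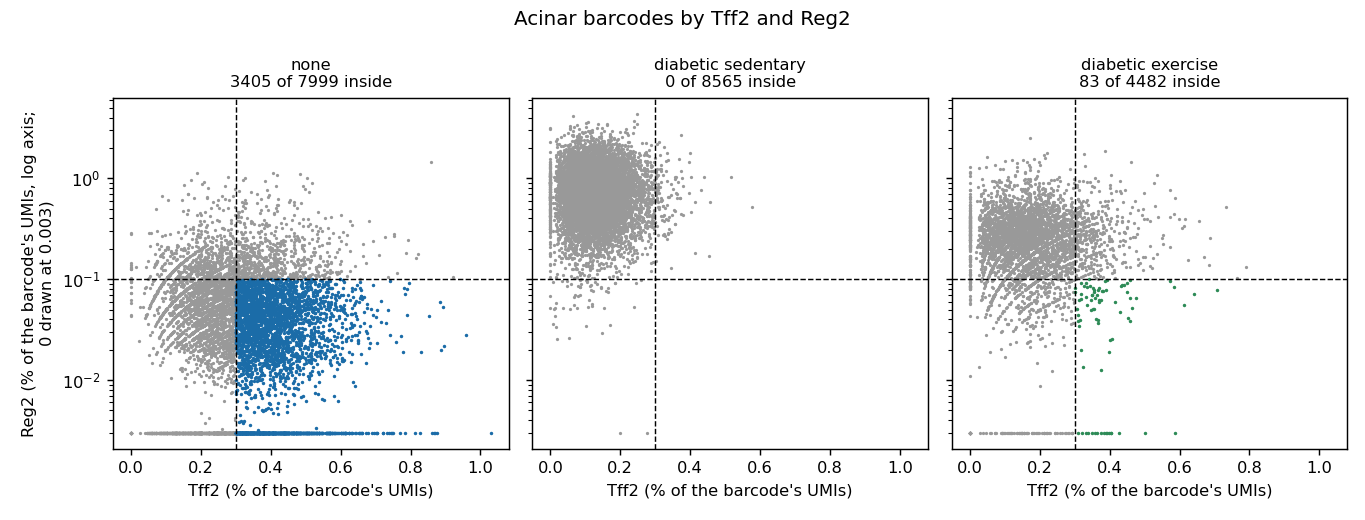
Each point is 1 acinar barcode, with Tff2 (x axis) and Reg2 (y axis, log scale) as percent of its UMIs, in 1 panel per library; the lines are the cuts at 0.3% and 0.1%. The lower right corner holds 3405 barcodes in none, 0 in diabetic sedentary and 83 in diabetic exercise.

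The clouds of points were continuous across the cuts. In none, 949 selected barcodes held Tff2 at 0.3 to 0.35% and 989 Reg2-low barcodes lay just outside at 0.25 to 0.3%. On the Reg2 side, 992 selected barcodes held 0.05 to 0.1% and 339 Tff2-high barcodes held 0.1 to 0.15%. The corresponding numbers in diabetic exercise were 28 inside and 54 outside for Tff2, and 49 inside and 62 outside for Reg2. The selected barcodes are therefore a range of levels bounded by chosen cuts.

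Within none the share grew with depth. It was 28.6% of acinar barcodes with 500 to 1000 UMIs, 30.5% at 2000 to 4000, 46.8% at 4000 to 8000 and 63.8% at 8000 or more. Diabetic exercise showed no such order, with 3.66% in the shallowest class and 1.54% in the deepest, and diabetic sedentary had none at any depth. Selected barcodes of none had a median of 5446 UMIs and 464 genes, against 3828.5 UMIs and 376 genes in the other acinar barcodes of that library. When each barcode was thinned to 1000 UMIs before the cuts were applied, the shares were 35.1% in none, 0.165% in diabetic sedentary and 3.94% in diabetic exercise, so the order of the libraries was the same at equal depth.

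**Figure D2:**
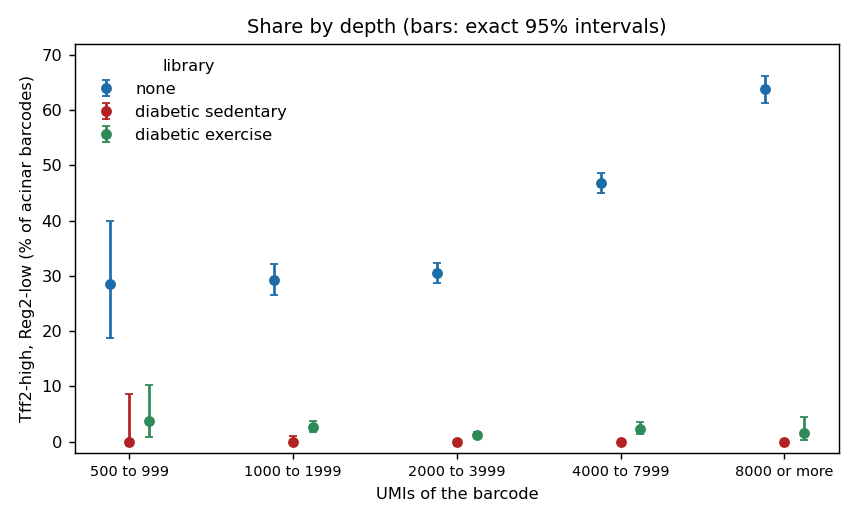
Share of acinar barcodes that were Tff2-high and Reg2-low (y axis, percent) by the barcode's number of UMIs (x axis), with points per library and exact 95% intervals as bars. In none the share goes from 28.6% to 63.8%, while diabetic sedentary stays at 0.

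Free RNA in the suspension gives each droplet some transcripts of other cells, and in 1 library it keeps its genes in 1 ratio. Barcodes in which the 16 genes held under 20% of UMIs served as a reading of that background. Per 100 panel UMIs, selected barcodes of none carried 0.609 Tff2 UMIs against 0.442 in the low-panel barcodes, and those of diabetic exercise carried 0.616 against 0.318. Their Reg2 was 0.0478 per 100 panel UMIs in none, below the 0.0725 of the low-panel barcodes, and 0.0873 against 0.541 in diabetic exercise. These low Reg2 values were set by the cut itself, and the Tff2 cut favoured high Tff2 values in the same way. So neither difference from the background is a check of the selection. The other acinar barcodes carried 0.388 Tff2 UMIs per 100 panel UMIs in none and 0.267 in diabetic exercise, below the low-panel barcodes in both. Of the selected barcodes, 698 of the 3405 in none (20.5%) and 17 of the 83 in diabetic exercise had no Reg2 UMI. In diabetic sedentary the Tff2 of all acinar barcodes, 0.193 per 100 panel UMIs, was close to the 0.210 of its low-panel barcodes.

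The acinar panel was part of the selection, so acinar levels describe the barcodes and are no check of the label. All 28 genes of an acinar identity list were detected in the selected barcodes of both libraries, with a summed level of 751589 CPM (UMIs per 1000000 UMIs of the sum) in none and 708043 CPM in diabetic exercise. Markers of other cell types were low and, in none, lower in summed level than in the other acinar barcodes. The share of barcodes with such a UMI did not follow in none. It was higher in the selected barcodes for ductal (44.9 against 35.2%) and endocrine markers (23.8 against 18.8%). Erythroid, macrophage, B cell, fibroblast and mesothelial markers were also found in a larger share of them, and endothelial, mural and T cell markers in a smaller one. In none the endocrine markers summed to 44.0 CPM in selected and 596 CPM in other acinar barcodes, the erythroid markers to 54.3 and 608 CPM, the B cell markers to 43.9 and 141 CPM, and the fibroblast markers to 73.0 and 149.6 CPM. Ductal markers summed to 123 and 158 CPM in none and to 331 and 354 CPM in diabetic exercise. In diabetic exercise the endocrine markers summed to 148 CPM in selected and 121 CPM in other barcodes, the B cell markers to 106 and 71.3 CPM, the mesothelial markers to 45.6 and 20.7 CPM, and the endothelial markers to 26.6 and 42.9 CPM. So the marker lists lay in both directions there, and 8 of 12 endothelial markers were at 0 in the selected barcodes. The part of other cells' RNA in the ratios below was not tested.

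Of the markers given for these cells, only Tff2 stood well apart from the other acinar barcodes of the same library. Tff2 was 4078 CPM in the selected and 2582 CPM in the other barcodes of none, 3782 and 1696 CPM in diabetic exercise, and 1317 CPM over the acinar barcodes of diabetic sedentary. Amy2b, of the amylase family, was 3960 and 3621 CPM in none, 2372 and 1908 CPM in diabetic exercise, and 381 CPM in diabetic sedentary. Pla2g1b, the secreted pancreatic phospholipase, was 4260 and 4055 CPM in none, 1889 and 1851 CPM in diabetic exercise, and 1766 CPM in diabetic sedentary. Amy2a5, itself 1 of the 16 genes, was 222 and 247 CPM in none and 36.9 CPM in diabetic sedentary, with 11 UMIs in the 83 selected barcodes of diabetic exercise. So Amy2b was 1.09 times as high in the selected as in the other barcodes of none (exact conditional Poisson 95% interval 1.08 to 1.10, counting error only), Pla2g1b 1.05 times (1.04 to 1.06) and Amy2a5 0.899 times (0.867 to 0.933). These 3 genes differed far more between libraries than between selected and other barcodes of none.

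Mt2 and some genes of the secretory granule were somewhat higher in the selected barcodes of none. The granule list as a whole was split, with 7 of 12 measured members higher and 5 lower. Mt2, which encodes a metal-binding metallothionein, was 702 CPM in the selected and 521 CPM in the other acinar barcodes, a ratio of 1.35 (1.32 to 1.38). Its neighbour gene Mt1 was 3283 and 3224 CPM, a ratio of 1.02 (1.01 to 1.03), so the pair did not differ alike. Clps, the cofactor that lets pancreatic lipase work in bile and 1 of the 16 genes, was 84170 and 70180 CPM (ratio 1.20). Spink1, the trypsin inhibitor packed with the zymogens, was 4082 and 3467 CPM (1.18, 1.17 to 1.19). Gp2, the main glycoprotein of the granule membrane, was 2617 and 2238 CPM (1.17, 1.16 to 1.18), and Dmbt1, a secreted mucosal scavenger protein, was 2024 and 1696 CPM (1.19, 1.18 to 1.21). Vamp8 and Rab3d, which act in granule release, had ratios of 1.22 (1.14 to 1.31) and 1.20 (1.11 to 1.30). Rpl41, Rplp2 and Rpl37a, 3 ribosomal protein genes singled out after their values were seen, had ratios of 1.31, 1.30 and 1.26.

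Of 16 measured acinar transcription factors, 10 were higher and 6 lower in the selected barcodes of none, none of them past 2-fold. Bhlha15 (Mist1), which scales up the secretory apparatus, had a ratio of 1.23 (1.13 to 1.34) and Nr5a2 one of 1.19 (1.03 to 1.38). Rbpjl, the acinar partner in the PTF1 complex, had a ratio of 0.862 (0.802 to 0.927). Cckar, the cholecystokinin receptor, was 177 CPM in the selected and 142 CPM in the other barcodes (1.24, 1.19 to 1.30). Of the integrated stress response genes, Chac1 had a ratio of 1.41 (1.24 to 1.61), Psat1 of 1.37 (1.15 to 1.63) and Mthfd2 of 1.28 (1.18 to 1.39). These genes were not fixed beforehand and do not stand for their list. The list had a median log2 ratio of 0.11 in none, beside -0.13 for all genes. Across the processing settings the list median ran from -0.10 to 0.23.

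The rest of the Reg family went the other way or stayed level in none. Reg1 was 23850 and 23390 CPM, a ratio of 1.02. Reg3b was 231 and 272 CPM (0.851, 0.821 to 0.882), Reg3a 10.9 and 15.3 CPM (0.711, 0.605 to 0.834) and Reg3g 12.3 and 17.8 CPM (0.694, 0.597 to 0.806). Against all other acinar barcodes of none, the selected ones therefore had lower Reg3 genes, which belong to the same family, and level Reg1. Along the Reg2 cut alone Reg1 was not level. Among Tff2-high barcodes of none it was 23850 CPM at low Reg2 and 28865.5 CPM with Reg2 at or above its cut.

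The same UMIs chose the barcodes and gave these ratios, so the cuts were also applied to a random part of each barcode's UMIs and the ratios taken from the remainder. In none the log2 ratio of Tff2 was then 0.39, against 0.66 when the same UMIs served both steps. The genes outside the cuts moved less. Mt2 went from 0.43 to 0.35, Spink1 from 0.24 to 0.19, Gp2 from 0.23 to 0.21, Dmbt1 from 0.26 to 0.22, and Amy2b was 0.13 in both.

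Counted over all genes, large differences in none were nearly all on the lower side and went with barcodes of low panel share. Of 8731 genes with at least 50 UMIs, 4 were at least 2-fold higher in the selected barcodes (0.0458% of genes) and 540 at least 2-fold lower (6.18%). The 4 higher genes, Fermt1, Mkks, Ak4 and Usp43, rested on 36 to 77 UMIs in the selected barcodes, and were singled out after their values were seen. With trimmed-mean scaling (TMM) the counts were 8 and 436. Among barcodes with the 16 genes at 60% of UMIs or more, 25 of 7678 genes were at least 2-fold higher and 3 lower. Barcodes under 60% made up 8.08% of the selected and 21.2% of the other acinar barcodes of none.

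Gene lists showed the same dependence. Of 12 measured genes of MHC class I and antigen processing, which present peptides to T cells, 8 were at least 2-fold lower in the selected barcodes of none, beside 6.18% of all genes, and the list's median log2 ratio was -1.08, beside -0.13 for all genes. At 60% panel share the 5 genes still measured had a median of 0.08, beside 0.11 for all genes, and none was 2-fold lower. B2m, the invariant chain of class I molecules, had a ratio of 0.454 at first and 0.845 at 60%. Nuclear RNAs kept part of their difference: their median went from -1.34 to -0.71, and Malat1, a long RNA that stays in the nucleus, was 589 CPM in selected and 2473 CPM in other barcodes, with a ratio of 0.238 at first and 0.508 at 60%. Interferon-induced genes went from -0.79 to -0.14, immediate early genes from -0.44 to 0.06, and ductal and acinar-to-ductal genes from -0.40 to 0.00.

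The median of all genes went from -0.13 to 0.11 with the panel share. The 12 measured zymogen granule proteins and inhibitors had a median of 0.12 under both and none past 2-fold, so the list lay above the median of all genes at first and level with it at 60%. The 16 acinar transcription factors went from 0.12 to 0.17, with 14 higher and 2 lower at 60%, the 31 integrated stress response genes from 0.11 to 0.19, and the 36 nuclear respiratory chain genes from 0.07 to 0.13. The 7 secretagogue receptors went from 0.01 to 0.34, and the 5 Reg genes from -0.23 to -0.25. For single genes at 60%, the ratios were 1.36 for Mt2, 1.17 for Clps, 1.16 for Spink1, 1.12 for Gp2, 1.15 for Dmbt1, 1.08 for Amy2b and 0.842 for Reg3b.

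**Figure D3:**
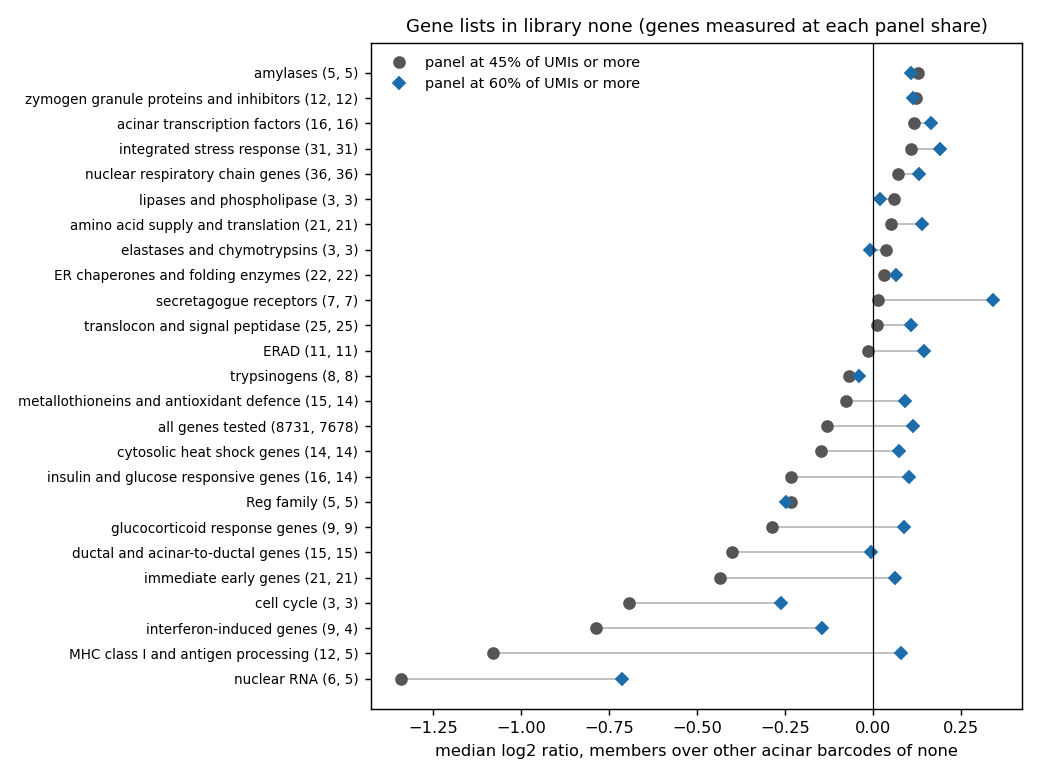
Median log2 ratio of each gene list in none, selected over other acinar barcodes (x axis), with circles for barcodes with the 16 genes at 45% of UMIs or more and diamonds for those at 60% or more; the numbers beside each name are the genes measured at each share. The MHC class I list goes from -1.08 to 0.08, while the granule list stays at 0.12.

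The cuts make 4 classes in each library, which show along which cut a gene differed. Mt2 followed Tff2: in none it was 702 CPM in the selected class, 663 CPM in Tff2-high barcodes with Reg2 at or above its cut, 490 CPM in Tff2-low, Reg2-low barcodes and 480 CPM in Tff2-low barcodes with Reg2 at or above its cut. Clps did the same, at 84170, 78015, 69182 and 64676 CPM. In the libraries that had few or no selected barcodes, Clps was again higher at high Tff2 where Reg2 was at or above its cut, with a ratio of 1.18 in diabetic sedentary and 1.12 in diabetic exercise, against 1.21 in none. Gp2 had ratios of 1.18 in none, 1.24 in diabetic sedentary and 1.19 in diabetic exercise for that same pair of classes. Reg3b followed Reg2 instead: in Tff2-high barcodes its ratio of Reg2-low over the rest was 0.518 (0.492 to 0.545) in none and 0.451 (0.371 to 0.545) in diabetic exercise. Within the Reg2-low barcodes Reg3b was slightly higher at high Tff2, with a ratio of 1.11 (1.06 to 1.15) in none.

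**Figure D4:**
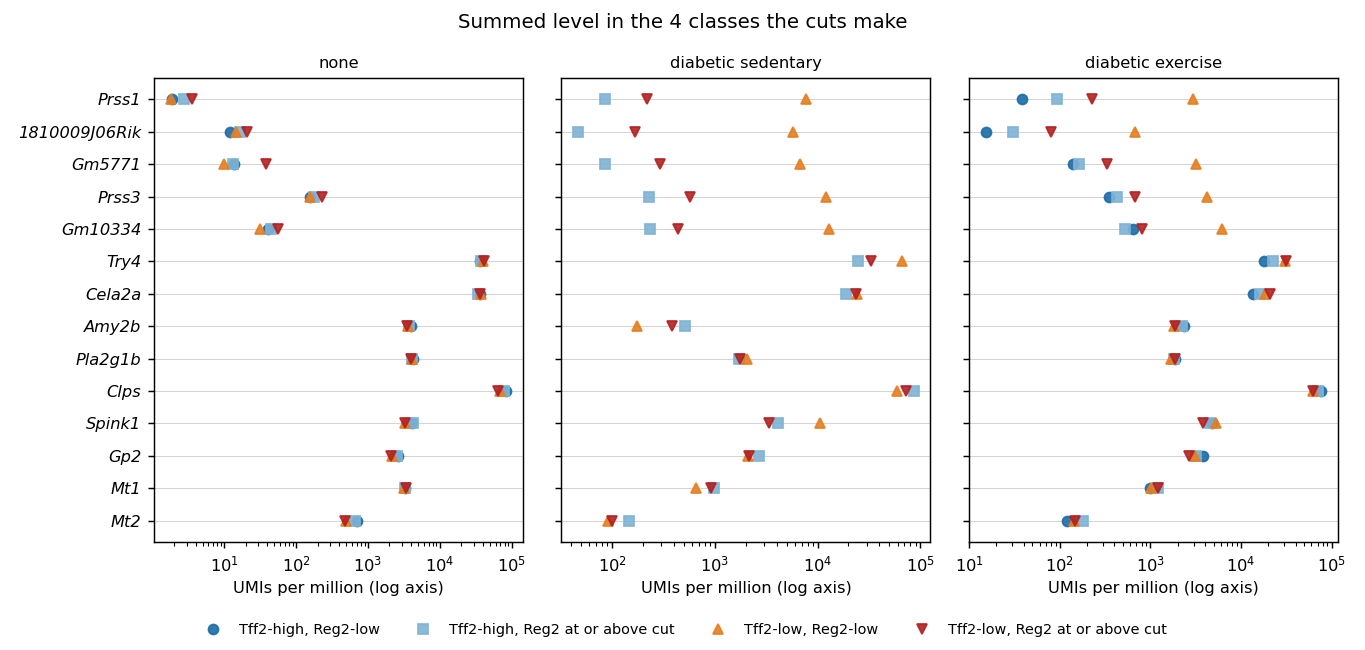
Summed level in CPM (x axis, log scale) of 14 genes in the 4 classes that the Tff2 and Reg2 cuts make, 1 panel per library; diabetic sedentary has no Tff2-high, Reg2-low class. In diabetic exercise Prss1 stands at 38.0 CPM in the Tff2-high, Reg2-low class and at 2953 CPM in the Tff2-low, Reg2-low class. In the latter, 30 of 509 barcodes had Prss1 at 0.1% of UMIs or more and held 98.1% of its Prss1 UMIs. Without them that class stood at 64.1 CPM. In the Tff2-high class with Reg2 at or above its cut, 7 of 406 barcodes reached 0.1%, and without them it stood at 83.4 CPM.

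In diabetic exercise the 83 selected barcodes differed from the other acinar barcodes mainly in trypsinogen genes, which encode the precursor of trypsin. Prss1 was 38.0 CPM (10 UMIs) in the selected and 592 CPM in the other barcodes, a ratio of 0.0642 (0.0308 to 0.118). Gm5771 was 141 and 710 CPM (0.198, 0.139 to 0.273) and Prss3 was 346 and 1147 CPM (0.302, 0.243 to 0.370). Gm10334 was 639 and 1528 CPM (0.418, 0.357 to 0.487), and 1810009J06Rik had 4 UMIs and a ratio of 0.0964. The 2 remaining measured genes of the list were less different: Try10 had a ratio of 0.774 (0.644 to 0.923) and 2210010C04Rik was 43800 and 43769 CPM. So 5 of 7 measured trypsinogens were at least 2-fold lower, beside 2.01% of all 299 genes with enough UMIs, and their median log2 ratio was -1.72, beside 0.15 for all genes. At 60% panel share, 3 of the 7 measured with at least 50 UMIs were 2-fold lower, beside 217 of 4150 genes. Their median was then -0.94, beside 0.33 for all genes. Prss3 had a ratio of 0.517 there and Gm10334 one of 1.06.

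Most of that difference came from few barcodes on the other side. In diabetic exercise 154 of 4399 other acinar barcodes (3.50%, 2.98 to 4.09%) had Prss1 at 0.1% of UMIs or more, and they held 82.2% of the Prss1 UMIs of all 4399. None of the 83 selected barcodes did, which allows a share of up to 3.61% by the floor of 3 counts (exact upper limit 4.35%). Such barcodes were also few among the 406 Tff2-high barcodes with Reg2 at or above its cut, at 7 (1.72%, 0.696 to 3.52%). Among Tff2-low barcodes they were 30 of 509 with low Reg2 (5.89%) and 117 of 3484 with Reg2 at or above its cut (3.36%). A low share of such barcodes was therefore not particular to the 83. Without the 154 barcodes the Prss1 ratio was 0.347 (0.166 to 0.640), Gm5771 0.645 (0.453 to 0.891), Prss3 0.653 (0.525 to 0.803) and Gm10334 1.43 (1.22 to 1.67). That of 1810009J06Rik was 0.309 (0.0839 to 0.794), on 4 UMIs in the selected barcodes. Since the 154 barcodes were picked by their own Prss1, leaving them out could only move the Prss1 ratio toward 1. In none, no acinar barcode had Prss1 at 0.1% of UMIs or more. Among the 16 genes, Try4 was 17883 and 30450 CPM and Cela2a 13443 and 20139 CPM, with ratios of 0.587 and 0.668, and without the 154 barcodes 0.600 and 0.666.

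Some genes of protein folding in the endoplasmic reticulum and of the granule were higher in the 83 barcodes. Hspa5 (BiP), the main chaperone there, was 433 and 257 CPM (1.68, 1.39 to 2.03) and P4hb, a protein disulfide isomerase, was 734 and 462 CPM (1.59, 1.37 to 1.83). Erp27 had a ratio of 1.61 (1.38 to 1.87) and Vamp8 of 1.64 (1.15 to 2.28). The 10 ER chaperone and folding genes with enough UMIs were split, 5 higher and 5 lower, with a median log2 ratio of 0.04, so Hspa5 and P4hb did not stand for the list. Gp2 was 3778 and 2778 CPM (1.36, 1.28 to 1.45) and Amy2b had a ratio of 1.24 (1.15 to 1.35). TMM scaling lowered every log2 ratio of this comparison by 0.33, which put Amy2b at -0.01 and Clps at -0.05. Mt2, higher in the selected barcodes of none, had 32 UMIs here and a ratio of 0.812 (0.554 to 1.15).

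The few UMIs of these 83 barcodes (263107 in all, against 25394735 in none) limit what counts of genes can show. Of 299 genes with at least 20 UMIs expected in the smaller sum, 0 were at least 2-fold higher (0%) and 6 at least 2-fold lower (2.01%). Of these, 5 were the trypsinogens above and the other was Gm2663, with 8 UMIs. By the minimum of 50 UMIs over both sums, 1270 of 5419 genes were past 2-fold higher (23.4%) and 254 lower (4.69%), but many of these had about 1 UMI in the selected barcodes. The selected barcodes of diabetic exercise also held less panel RNA than their neighbours, with 47.0% of them under 60% panel share against 21.5% of the others. Differences in genes of low level were not detectable at this depth.

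Of the 24 genes named for the largest ratios in the same direction in both libraries, most had 0 to 7 UMIs in diabetic exercise. Gm8420 had 957 UMIs in the selected barcodes of none with a ratio of 1.53 (1.37 to 1.70), and 22 UMIs in diabetic exercise with a ratio of 1.77 (1.10 to 2.70). On the lower side, Tmsb10, which encodes an actin-binding peptide, was 13.9 and 47.7 CPM in none (0.290, 0.257 to 0.328) and had 1 UMI in the selected barcodes of diabetic exercise. S100a9, Kcnq1ot1, C1qc, Ttc14, Pigr and Pnisr were also lower in none and at 0 in the 83 barcodes, so no ratio is given for them there.

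Between libraries, the selected barcodes of diabetic exercise differed from those of none in several trypsinogens, metallothioneins, amylases and early response genes. Among the trypsinogens, Prss1 was 38.0 against 1.85 CPM, a ratio of 20.5 (9.25 to 41.2), Gm10334 639 against 40.4 CPM (15.8, 13.4 to 18.6) and Gm5771 141 against 13.8 CPM (10.2, 7.05 to 14.3). In the other acinar barcodes the same ratios were 264, 41.0 and 48.3. So these 3 copies were higher in the selected barcodes of diabetic exercise than in those of none, by less than in the remaining acinar barcodes, which include the 154 described above. Other copies were lower: 2210010C04Rik was 43800 against 63421 CPM (0.691, 0.678 to 0.703), Prss2 62632 against 86326 CPM and Try4 17883 against 36359 CPM. Try5 was higher, at 34712 against 16746 CPM. Prss2, Try4 and Try5 are among the 16 genes. Of the 8 trypsinogens outside the 16 genes measured with at least 50 UMIs, 5 were at least 2-fold higher, beside 40.4% of all genes, and 3 had ratios under 1, and of the 3 with at least 20 UMIs expected 1 was at least 2-fold higher and 2 had ratios under 1, with a median log2 ratio of -0.53.

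The genes lower in the selected barcodes of diabetic exercise were lower in its other acinar barcodes too. Mt2 was 122 against 702 CPM (0.173, 0.118 to 0.245) and Mt1 996 against 3283 CPM (0.303, 0.268 to 0.342), with 0.288 and 0.366 in the other acinar barcodes. Amy2a5 had a ratio of 0.188 (0.0940 to 0.337), Amy2b of 0.599 (0.553 to 0.648) and Pla2g1b of 0.443 (0.405 to 0.484), with 0.265, 0.527 and 0.456 in the other barcodes. Gal, which encodes the neuropeptide galanin, was 34.2 against 117 CPM (0.293, 0.134 to 0.557). Cela2a, an elastase, had a ratio of 0.367 (0.355 to 0.379) against 0.550 in the other barcodes. Malat1 had a ratio of 0.310 (0.228 to 0.411), less far from 1 than the 0.104 of the other barcodes.

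Immediate early genes, which answer within minutes to stimulation or to dissociation, were lower in part. Of 20 measured with at least 50 UMIs, 7 were at least 2-fold lower, beside 3.08% of all genes, and 4 at least 2-fold higher, beside 40.4%, with a median log2 ratio of -0.58 beside 0.69. That median ran from -1.38 at 60% panel share to 0.82 with the Tff2 cut at 0.5%. Of the 9 measured with at least 20 UMIs expected, 6 were at least 2-fold lower and 9 of 9 had ratios under 1, with a median log2 ratio of -1.18. Btg2 was 49.4 against 219 CPM (0.226, 0.120 to 0.387), Jun 91.2 against 203 CPM (0.449, 0.288 to 0.669) and Egr1 125 against 302 CPM (0.415, 0.286 to 0.584), while Fos was 175 against 188 CPM (0.932, 0.681 to 1.24). The background was 25 of 267 genes at least 2-fold higher (9.36%) and 17 at least 2-fold lower (6.37%), with a median of 0.18. In the other acinar barcodes Btg2 and Jun had ratios of 0.235 and 0.353.

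Some secretory genes were higher in the selected barcodes of diabetic exercise than in those of none. Dmbt1 was 4021 against 2024 CPM (1.99, 1.87 to 2.11), Reg3b 456 against 231 CPM (1.97, 1.63 to 2.36) and Hspa5 433 against 220 CPM (1.97, 1.62 to 2.37). P4hb had a ratio of 2.11 (1.82 to 2.43) and Clu, a secreted chaperone, of 2.02 (1.72 to 2.34). Outside the lists, Pfn1, which binds actin, had a ratio of 3.81, Ctsd, a lysosomal protease, of 3.12, and Rpsa, a ribosomal protein, of 2.65 (2.39 to 2.94). The choice of scaling weighs here: TMM lowered every log2 ratio by 0.62 and gave 2 genes at least 2-fold higher and 47 lower in place of 25 and 17, and scaling on UMIs outside the genes of the cuts gave 13 and 21. Under the minimum of 50 UMIs the counts were 2602 of 6436 higher (40.4%) and 198 lower (3.08%). Mitochondrial RNA also differed, with a median of 3.19% in the selected barcodes of diabetic exercise and 0.496% in those of none, and its part in these ratios was not tested. In the other acinar barcodes at 60% panel share, Dmbt1 was 2944 CPM in diabetic exercise against 1765 CPM in none, and Reg3b 631 against 275 CPM. So higher Dmbt1 and Reg3b in diabetic exercise were not particular to the selected barcodes. Hspa5 was 232 against 201 CPM in those other barcodes, and 412 against 216 CPM in the selected ones at that share.

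**Figure D5:**
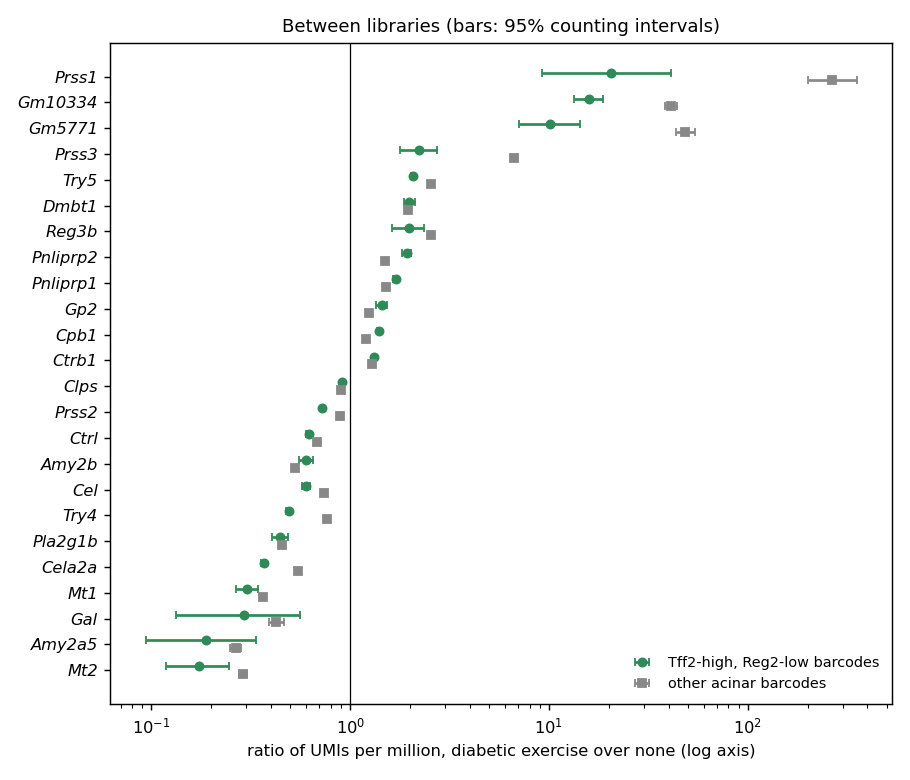
Ratio of CPM, diabetic exercise over none (x axis, log scale), for named genes in the Tff2-high, Reg2-low barcodes (green circles) and in the other acinar barcodes (grey squares), with 95% counting intervals as bars. Prss1 stands at 20.5 and 264, and Mt2 at 0.173 and 0.288.

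Diabetic sedentary had 112 Tff2-high barcodes, all with Reg2 at or above its cut, and these were the nearest to the selected ones in that library. Their Reg2 was 8337 CPM, 26.0 times that of the selected barcodes of none. Reg3b was 2285 CPM against 231 CPM (9.88 times), and Reg3a and Reg3g were 25.1 and 20.4 times as high. Amy2b was 518 against 3960 CPM (0.131), Mt2 146 against 702 CPM (0.208) and Pla2g1b 1736 against 4260 CPM (0.407). Clps, Gp2 and Spink1 were level, with ratios of 1.02, 1.02 and 1.01. Of 496 genes with at least 20 UMIs expected, 7 were at least 2-fold higher (1.41%) and 15 lower (3.02%). A doublet score by Scrublet put 15.2% of the 112 in the top 5% of their library, against 6.35% of all 8565 acinar barcodes there. In their own libraries the selected barcodes had 7.05% in none and 9.64% in diabetic exercise.

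Among the 3405 selected barcodes of none, several genes of the secretory program graded with Tff2. The barcodes were split at 0.4% and 0.5% Tff2 into groups of 1746, 1083 and 576. From the lowest to the highest group Clps went from 82534 to 84684 to 89365 CPM and Spink1 from 3839 to 4207 to 4739 CPM. Try4 went from 38024 to 35270 to 32382 CPM and Cel, a bile-salt-dependent lipase, from 14245 to 13319 to 10772 CPM. Amy2b, at 3923, 3999 and 4013 CPM, and Pla2g1b, at 4283, 4216 and 4267 CPM, hardly moved. Malat1, which is no secretory gene, went from 693 to 517 to 351 CPM. Spread beyond counting error was led mostly by genes of other cells. Hba-a1, a haemoglobin gene, had 72.5% of its UMIs in the top 1% of barcodes, Hba-a2 68.7% and Dcn, a fibroblast gene, 67.3%. The trypsinogen copy Gm5771 was also among the most uneven genes, above Dcn, with 50.4% of its UMIs in the top 1%.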

How the data were processed

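Pancreas from 3 libraries (1 per group) was profiled with the 10x Chromium 3-prime v3 kit, per the labels' protocols. The deposited values are raw UMI counts per gene and barcode for 55450 features. Cell Ranger 7.1.0 is named in the submitters' processing notes and 6.1.2 in the matrix headers, and the sources used here do not name the alignment build. All features matched GENCODE M21. From the counts, barcodes with at least 500 UMIs and 200 genes were kept and the cuts given above applied, with no doublets removed and no free RNA corrected. UMIs were summed per library and class and given as CPM (per 1000000 UMIs). Ratios carry exact conditional Poisson 95% intervals, log2 ratios a prior count of 0.5, and shares exact Clopper-Pearson intervals, which cover counting error only. A gene was called at 2-fold, over genes with at least 50 UMIs in both sums together, leaving out the genes of the cuts and mitochondrial genes. A minimum of 20 UMIs expected in the smaller sum was added after seeing the data, as were the sums without Prss1-rich barcodes. The planned pairs with diabetic sedentary could not be formed, since it had no selected barcode, and its Tff2-high barcodes were used instead. The naming rule took the 12 highest and 12 lowest genes by the ratio nearest to 1 in none and diabetic exercise. It also took the 10 highest and lowest between libraries (diabetic exercise over none in place of the planned pairs). Up to 4 genes of each list, the markers and the 16 genes completed it. Not every gene it named is given in the text. Further genes were given outside the rule and were not fixed beforehand, among them Prss1, Gm5771, Nr5a2, Vamp8, Rab3d, Erp27, Fos, Chac1, Psat1 and Mthfd2. The barcodes, lists and tests were chosen with earlier results of these data known. Sums used Python 3.11.15, scipy 1.17.1 and scanpy 1.11.5 (Scrublet), and TMM factors edgeR 4.0.16. The ratio code was tested on simulated data.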

Additional observations from a re-analysis of the deposited data

Results flagged for a closer look

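A few genes lay on opposite sides of a ratio of 1 in none and in diabetic exercise when selected barcodes were set against other acinar barcodes, with both counting intervals off 1. With 1 library on each side, the differences were not tested. The log2 ratio in none minus that in diabetic exercise was 0.16 for Reg1, 0.27 for Mt1 and -0.35 for Pnliprp2. Among the 16 genes of the selection it was 0.31 for Cel, 0.30 for Try5, 0.14 for Zg16, -0.10 for Pnlip and -0.12 for Cpa1.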

How the results depend on the processing

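Counting depth limits the 83 barcodes of diabetic exercise, where 1 UMI is often the whole evidence for a gene. The shares in none, diabetic sedentary and diabetic exercise were 65.9%, 0.0584% and 4.93% with the Tff2 cut at 0.2%, and 7.20%, 0 and 0.156% at 0.5%. They were 30.2%, 0 and 0.759% with the Reg2 cut at 0.05%, and 48.6%, 0.0584% and 4.66% at 0.2%. In none the share was 44.7% with at least 2000 UMIs, 41.4% with cuts per panel UMIs and 37.1% of all barcodes that passed the UMI and gene minimum. In diabetic exercise it was 1.32% with a 10% mitochondrial ceiling and 0.512% of all barcodes that passed. At 60% panel share it was 46.4% in none and 1.26% in diabetic exercise, and thinned to 1000 UMIs the shares were 35.1%, 0.165% and 3.94%. None was highest and diabetic sedentary lowest under each of these settings.

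Genes at least 2-fold higher and lower by the 50-UMI minimum moved with many settings. In none they were 12 higher at Tff2 0.2%, 49 higher and 998 lower at 0.5%, 1 higher at Reg2 0.2%, and 25 and 3 at 60% panel share. They were 2 and 64 thinned, 11 and 178 with cuts per panel UMIs, 2 and 260 with separate UMIs for choice and measurement, 8 higher with TMM, 20 and 1208 as means of barcode shares, and 37 and 1248 with a minimum of 20 UMIs. Within diabetic exercise they were 309 and 384 at Tff2 0.2%, 5137 and 22 at 0.5%, 2863 and 122 at Reg2 0.05%, 392 higher at 0.2%, and 2248 higher with the 10% mitochondrial ceiling. They were 154 higher thinned, 290 higher with separate UMIs, 670 and 506 with TMM, 661 lower as means of shares, 3749 higher with a minimum of 20, 28 and 61 against the Tff2-low, Reg2-low barcodes, and 0 and 6 with 20 UMIs expected. For diabetic exercise over none they were 1703 and 443 at Tff2 0.2%, 1112 and 27 at 0.5%, 107 lower at Reg2 0.05%, 1697 and 327 at 0.2%, and 156 and 102 thinned. They were 1397 and 663 with TMM, 633 lower as means of shares, 5215 higher with a minimum of 20, and 25 and 17 with 20 UMIs expected. A lower minimum tests more genes of few UMIs, and the cause of the other moves was not tested.

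Over the alternatives, 668 of 712 gene values kept their sign within none, 668 of 748 within diabetic exercise and 588 of 609 between libraries, and of list medians 417 of 458, 411 of 480 and 340 of 399. Among values at least 2-fold from 1 in the report, these changed sign. Malat1 between libraries was 0.13 at Tff2 0.5%. At 60% panel share H2-K1 and the MHC class I median in none were 0.081 and Gm10334 within diabetic exercise was 0.10. Gm10334 was 0.52 without the Prss1-rich barcodes. The interferon median between libraries was -0.033 thinned, and Reg3a within diabetic exercise was 0.31 against the Tff2-low, Reg2-low barcodes. No paired analysis was possible because each group has 1 library.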
